A study of Mus musculus with 3 samples.

Results

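Tubulin genes were examined in the ChIP-seq data of mouse cortices at E13.5, namely Tuba1a, Tuba1b, Tuba1c, Tubb2a, Tubb2b, Tubb3, Tubb4b, Tubb5, Tubb6 and Tubg1. These 10 genes were listed by name, out of 21938 protein-coding genes on chromosomes 1 to 19, X and Y of GENCODE M21, and the list itself uses no peak value. The series held 3 libraries of fixed and sonicated cortical chromatin, 1 from input, 1 from NF-Y-ChIP with an antibody against the NF-YC subunit and 1 from H3K4me3-ChIP. The labels give no genotype, strain or treatment, and the number of embryos behind each library is not given in the sources used here. The NF-Y-ChIP list held 733 peaks and the H3K4me3-ChIP list held 18816 peaks, and the input had no list. Each antibody had 1 library, so the values have no error between replicates and no test compares the genes. A peak was assigned to a gene when it overlapped the gene body or the 5 kb upstream. Fold enrichment is the signal at the summit of a peak over the local background.

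Tubulins are the building blocks of microtubules. An alpha- and a beta-tubulin form a dimer that polymerises, and gamma-tubulin nucleates the polymer at centrosomes. Dividing progenitors need microtubules for the mitotic spindle, and postmitotic neurons need them for migration, axons and transport. Tubb3, Tubb2b, Tubb2a and Tuba1a are isotypes rich in neurons, and Tubb3 protein, detected by the Tuj1 antibody, is a common neuronal marker. Tuba1b, Tuba1c, Tubb4b, Tubb5, Tubb6 and the gamma-tubulin Tubg1 are used more broadly, including in dividing cells. This division into 4 neuron-enriched and 6 broadly expressed genes rests on general knowledge and not on these data. NF-Y is a trimer that binds the CCAAT box, read as ATTGG on the opposite strand, and H3K4me3 marks active promoters.

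The reference sequences (GRCm38.p6) of 5 regions are shown because they hold the NF-Y-ChIP peaks near tubulin genes or let promoters with and without such a peak be compared. Each reads 5′ to 3′ on the strand of the gene named, and capitals mark each CCAAT or ATTGG. The Tubb4b region (chr2:25224705-25225004, minus strand) holds the whole NF-Y-ChIP peak in its first 208 bases and ends just upstream of the TSS. The peak assigned to Tubb5 (chr17:35841279-35841512) is written on the plus strand, the strand of Mdc1. The promoters of Tubb5 (chr17:35838307-35838551, minus strand), Tubb2a (chr13:34078009-34078258, minus strand) and Tubb3 (chr8:123411303-123411423, plus strand) come from the RefSeq promoter set, which had 7 of the 10 genes. They end before the first annotated start. The Tubb3 stretch is thus only 121 bases long, and the box that Tubb3 has by its RefSeq start lies downstream of it.
Tubb4b upstream region: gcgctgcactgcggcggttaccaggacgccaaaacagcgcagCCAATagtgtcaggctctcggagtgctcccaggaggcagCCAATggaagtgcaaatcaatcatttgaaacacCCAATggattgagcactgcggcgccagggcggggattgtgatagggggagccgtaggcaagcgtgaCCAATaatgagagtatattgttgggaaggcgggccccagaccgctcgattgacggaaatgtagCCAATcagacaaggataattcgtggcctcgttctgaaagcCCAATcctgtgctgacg
Mdc1 and Tubb5 peak: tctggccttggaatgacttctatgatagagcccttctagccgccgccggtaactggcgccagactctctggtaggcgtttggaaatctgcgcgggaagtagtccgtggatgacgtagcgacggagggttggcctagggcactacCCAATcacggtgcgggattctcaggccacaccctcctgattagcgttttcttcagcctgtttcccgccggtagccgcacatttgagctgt
Tubb5 promoter: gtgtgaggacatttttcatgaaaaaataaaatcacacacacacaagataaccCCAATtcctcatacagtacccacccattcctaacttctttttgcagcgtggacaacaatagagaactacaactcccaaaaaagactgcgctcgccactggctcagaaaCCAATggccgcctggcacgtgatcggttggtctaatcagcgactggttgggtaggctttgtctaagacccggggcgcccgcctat
Tubb2a promoter: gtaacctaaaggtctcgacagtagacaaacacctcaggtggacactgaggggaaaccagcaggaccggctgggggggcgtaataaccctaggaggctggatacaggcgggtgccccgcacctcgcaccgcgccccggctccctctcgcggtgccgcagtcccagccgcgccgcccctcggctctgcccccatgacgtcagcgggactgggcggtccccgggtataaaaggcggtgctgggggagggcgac
Tubb3 promoter: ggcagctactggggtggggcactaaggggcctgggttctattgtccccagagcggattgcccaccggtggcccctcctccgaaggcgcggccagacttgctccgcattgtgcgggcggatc

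To ask whether NF-Y occupied tubulin promoters in the early cortex, NF-Y-ChIP peaks were assigned to the genes. An NF-Y-ChIP peak was assigned to 2 of the 10 genes, Tubb4b and Tubb5, and both belong to the broadly expressed group. Over all protein-coding genes the share with such a peak was 3.69%. When the summit had to lie no more than 1 kb from a TSS (a promoter summit), the count was 1 of 10, Tubb4b, against 3.17% of protein-coding genes. The neuron-enriched genes Tuba1a, Tubb2a, Tubb2b and Tubb3 had no NF-Y-ChIP peak (0 of 4, upper limit of the Wilson 95% confidence interval 49.0%), and the broadly expressed genes had 2 of 6 (interval 9.68 to 70.0%). The intervals overlap widely, and sets this small cannot separate the groups. The cortex is a mixture of progenitors and neurons, so fewer cells with a bound promoter and weaker binding per cell cannot be told apart.

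Of the other 8 genes, Tubg1 was the closest to an NF-Y-ChIP peak, with a summit at −49.9 kb and a fold enrichment of 8.59. A single summit with a fold enrichment of 5.25 was the nearest for the Tuba1 cluster on chromosome 15, at −342 kb from Tuba1a, −361 kb from Tuba1b and 265 kb from Tuba1c. For Tubb2a and Tubb2b, which are neighbours on chromosome 13, the nearest summit was at −797 kb and −745 kb. It was at −369 kb for Tubb3 and −1388 kb for Tubb6. Tubulin genes have near-identical copies, so the reference was searched for stretches of 50 bases, the length of each read of a pair, that occur more than 1 time on the chromosomes. Within 500 bp upstream of the TSS, 100% of the stretches of each of the 10 genes were unique. Inside the genes the unique share ranged from 48.7% in Tuba1b to 99.2% in Tubb5. The part of the repeated stretches in the H3K4me3 values was not tested.

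**Figure D1:**
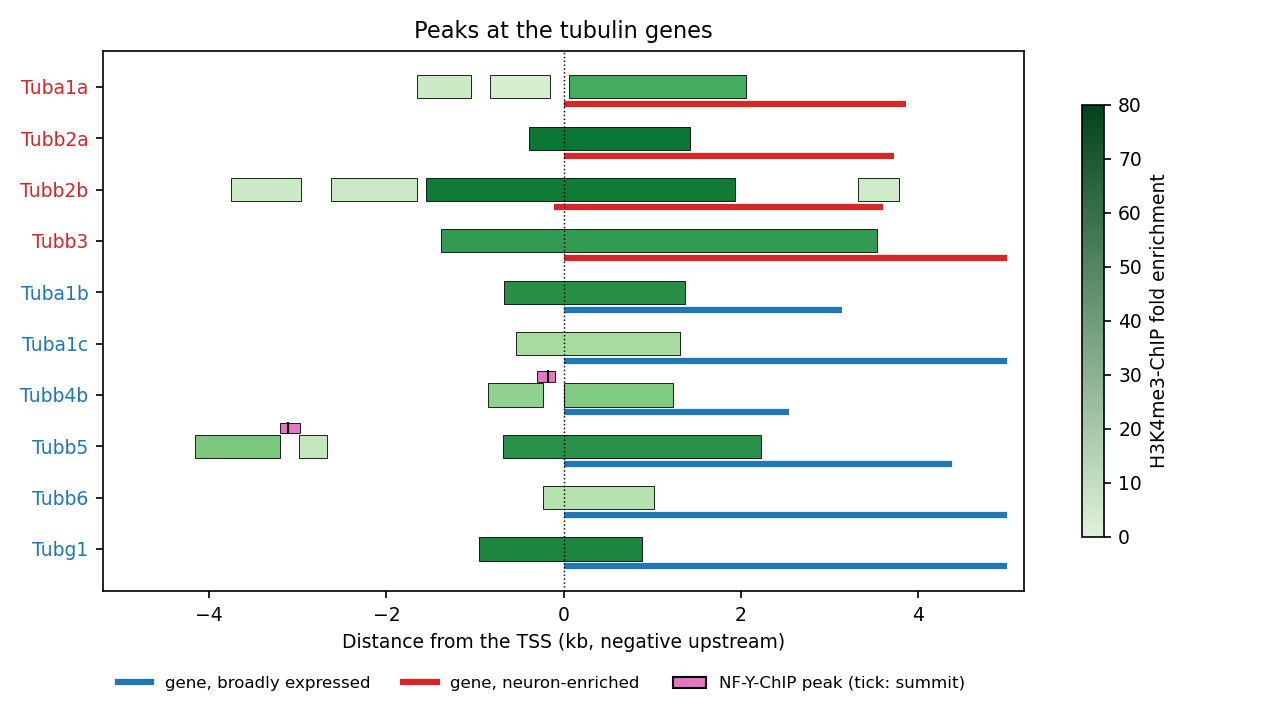
Peaks of both lists at the 10 tubulin genes, drawn by distance from the TSS in kb, with the gene body as a line cut off at 5 kb (red, neuron-enriched; blue, broadly expressed). Green bars are H3K4me3-ChIP peaks shaded by fold enrichment and pink bars are NF-Y-ChIP peaks with the summit as a tick. The pink bars stand at 2 genes, at −179 bp from the Tubb4b TSS and at −3114 bp from the Tubb5 TSS.

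Tubb4b, a beta-tubulin of many cell types that is also found in cilia, was the member with an NF-Y-ChIP peak at a tubulin promoter. It occupies 25222160 to 25224702 of chromosome 2, on the minus strand. The peak spanned 208 bp between 25224797 and 25225004, with its summit at 25224881, which is −179 bp from the TSS. The peak was among the weakest of the list, with a fold enrichment of 3.72 against a median of 6.75, and it ranked 702 of 733. Its −log10 p-value was 5.08 and its −log10 q-value 0.819, which is a q-value of 0.152. It passed the p-value threshold of the authors for NF-Y-ChIP, but it was 1 of the 37 peaks of the list (5.05%) whose q-value was 0.05 or more. Of the 32 peaks with a fold enrichment no higher than that of Tubb4b, 71.9% had a CCAAT box no more than 50 bp from the summit (interval 54.6 to 84.4%), against 88.3% of the whole list.

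The upstream sequence of Tubb4b held 6 CCAAT boxes within 260 bp of the TSS, all in the same orientation, with CCAAT on the strand of the gene. Read towards the TSS, their starts were spaced by 39, 33, 66, 63 and 40 bp. The box nearest the summit, 25224886 to 25224890, had its centre 7 bp from it, and the next, 25224919 to 25224923, had its centre 40 bp away and also matched the extended NF-Y consensus. A further box at −59 bp from the TSS matched the consensus but lay outside the peak, as did the box at −19 bp. Counted from 200 bp upstream to 50 bp downstream of the TSS, the window used for all genes, Tubb4b had 4 boxes. Of 139 H3K4me3-marked genes with 4 or more boxes in this window, 51.8% had a promoter summit of NF-Y-ChIP (interval 43.6 to 59.9%).

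The NF-Y-ChIP summit of Tubb4b lay in a gap of 232 bp between its H3K4me3-ChIP peaks, from 25224701 to 25224932. The peak downstream of the gap began 2 bp into the gene, with a fold enrichment of 29.6 and a width of 1237 bp. The peak upstream had a fold enrichment of 25.9 and a width of 626 bp. The NF-Y-ChIP peak overlapped the upstream one by 72 bp, which is 34.6% of its width. Such an overlap with the summit outside was found in 50 of all 733 NF-Y-ChIP peaks (6.82%), whereas the summit of 595 lay inside an H3K4me3-ChIP peak. Among the 10 tubulin genes, the TSS lay in such a gap at Tubb4b and at Tuba1a, against 0.712% of H3K4me3-marked protein-coding genes, a property chosen after the values were seen.

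Tubb5, the main beta-tubulin of dividing cells and abundant in the developing brain, was assigned the second NF-Y-ChIP peak. It occupies 35833921 to 35838306 of chromosome 17, on the minus strand. The peak spanned 35841279 to 35841512 and its summit was at −3114 bp from the Tubb5 TSS. It was stronger than that of Tubb4b, with a fold enrichment of 7.78, rank 260 and a q-value of 2.97e-08. The summit, however, was at −95 bp from the TSS of Mdc1, a DNA damage checkpoint gene that starts at 35841515 on the plus strand and points away from Tubb5. The only CCAAT box in this peak, at 35841423 to 35841427, had its centre 5 bp from the summit and did not match the extended consensus. Here too the summit lay between H3K4me3-ChIP peaks, in a gap of 220 bp, and the NF-Y-ChIP peak touched them over 14 bp (5.98% of its width). The peaks on each side had a fold enrichment of 10.9, towards Tubb5, and 30.4, over the start of Mdc1. The H3K4me3-ChIP peak of Tubb5 itself was separate, with a fold enrichment of 54.4 and no NF-Y-ChIP peak on it.

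The Tubb5 promoter was not short of the motif. It held 2 CCAAT boxes on the strand of the gene, the first at −85 to −81 bp, which matched the extended consensus, and the second at −193 to −189 bp. The list nevertheless gave Tubb5 no promoter summit. Of 1094 H3K4me3-marked genes with 2 boxes in the window, 18.1% had one (Wilson 95% confidence interval 15.9 to 20.5%), so most promoters with as many boxes had no listed peak either.

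A CCAAT box was present from 200 bp upstream to 50 bp downstream of the TSS in 6 of the 10 tubulin genes, against 34.1% of all protein-coding genes (CCAAT or ATTGG, either strand) and 33.7% of those that H3K4me3 marked at the promoter, as it did all 10. In the neuron-enriched group these were 2 of 4 genes with 1 box each. Tuba1a, mutated in human cortical malformations, had its box at 26 to 30 bp downstream of the GENCODE TSS. Tubb2b, linked to malformations of the same kind, had ATTGG at −178 to −174 bp in the extended consensus. In the broadly expressed group they were 4 of 6 genes with 8 boxes, 4 of them in Tubb4b. Tuba1c had ATTGG at −151 to −147 bp and Tubb6 had it at −76 to −72 bp, and neither matched the extended consensus. Tuba1b, Tubb2a, Tubb3 and Tubg1 had no box in the window. At least 2 boxes were found in Tubb4b and Tubb5, and in 11.7% of the H3K4me3-marked protein-coding genes.

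The annotated start matters for some of these counts. RefSeq places the start of Tuba1a 202 bp, of Tuba1b 175 bp and of Tubb3 129 bp downstream of the GENCODE start. With the RefSeq starts, the window of Tubb3 held 1 box, and that of Tuba1b still held 0. The TSS of Tuba1a then lay inside its H3K4me3-ChIP peak and no longer in a gap, whereas the start of Tubb4b was the same in both annotations. Relative to the RefSeq start of Tuba1a, its CCAAT box and the near edge of its strongest H3K4me3-ChIP peak lay upstream, not downstream.

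**Figure D2:**
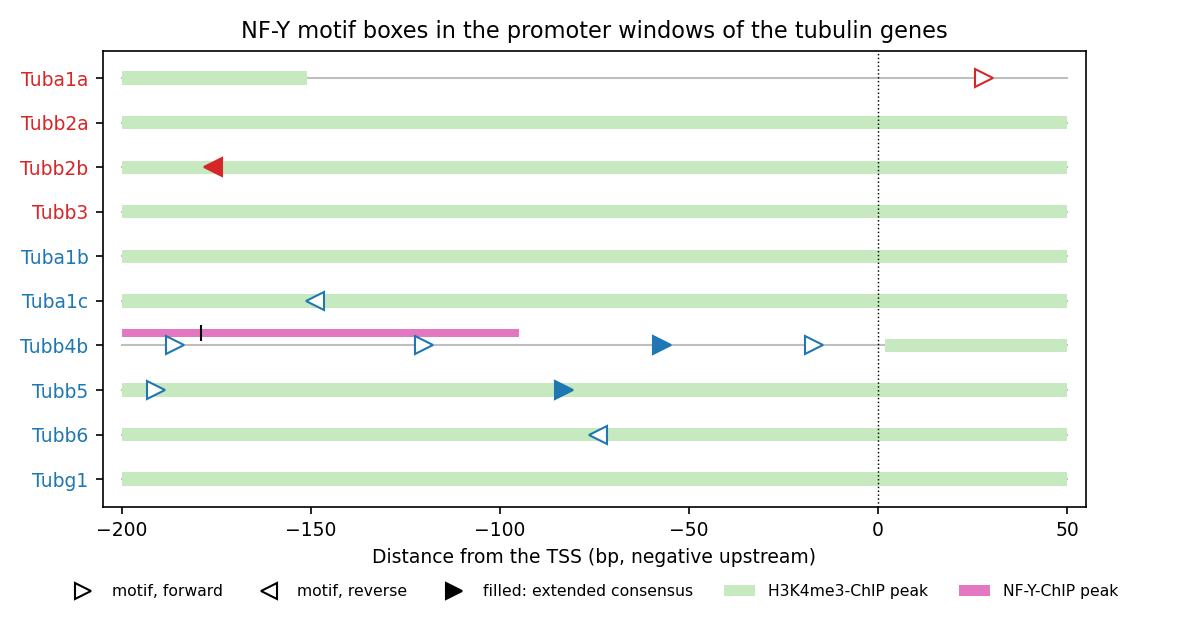
Positions of CCAAT (pointing right) and ATTGG (pointing left) on the strand of the gene, from 200 bp upstream to 50 bp downstream of the TSS, with filled symbols for the extended consensus. Light green marks H3K4me3-ChIP peaks and pink the NF-Y-ChIP peak with its summit. Tubb4b has 4 boxes in a stretch without H3K4me3-ChIP peak, and 4 genes have none.

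Of the 13767 protein-coding genes marked by H3K4me3 no more than 1 kb from a TSS, 5.03% had a promoter summit of NF-Y-ChIP. This share was 1.57% without a box in the window (143 of 9125 genes), 5.50% with 1 box (167 of 3036), 18.1% with 2 (198 of 1094) and 35.9% with 3 or more (184 of 512). The tubulin genes spread over these classes as 4, 4, 1 and 1 genes, and the gene with a promoter summit, Tubb4b, is the one in the highest class. The absence of a listed peak at the 8 genes with 0 or 1 box was thus what most genes of their class showed.

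**Figure D3:**
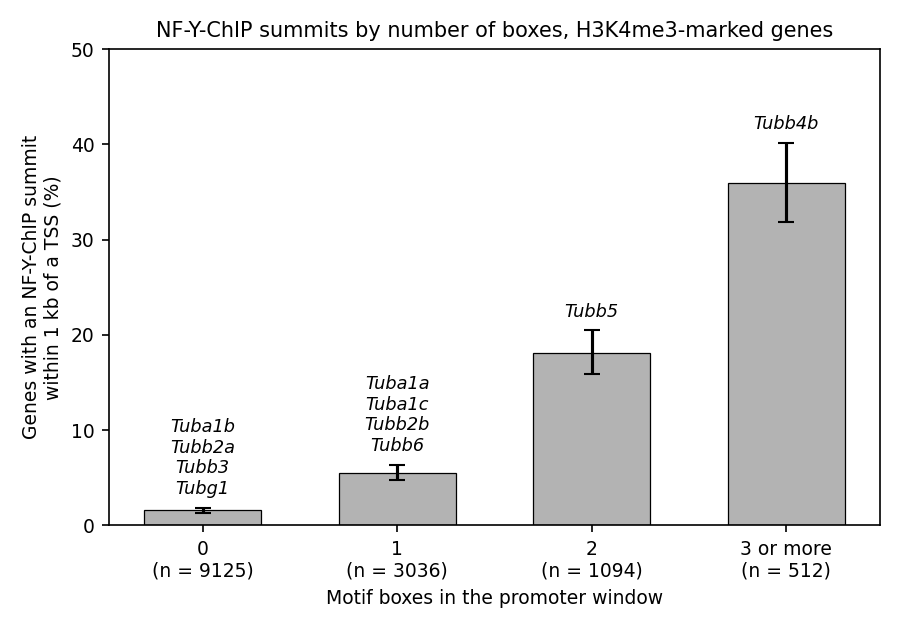
Share of H3K4me3-marked protein-coding genes with a promoter summit of NF-Y-ChIP (y axis, percent), by the number of CCAAT boxes in the promoter window, with Wilson 95% confidence intervals as error bars and the tubulin genes of each class written above the bar. The bars rise from 1.57% to 35.9%, and Tubb4b is the tubulin gene in the highest class.

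H3K4me3 marked all 10 tubulin genes, against 65.4% of protein-coding genes by the same rule. The strongest peak of the gene had a fold enrichment at or above the median of the list, 27.5, in 8 of the 10. Tuba1c and Tubb6 were below it. Over protein-coding genes these were 10293, which is 46.9% of all 21938, with genes without a peak counted as below. All 10 tubulin genes had a peak, so the like comparison is 10293 of the 14352 genes with a peak, a larger share. The median fold enrichment over the 10 genes was 52.5, and over the 14352 protein-coding genes with a peak it was 40.1. These values describe promoter chromatin in the mixed tissue and are not transcript levels.

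In the neuron-enriched group, Tubb2a had the highest fold enrichment of all 10 genes, 64.8, in a peak of 1819 bp from 34076582 to 34078400 on chromosome 13. Tubb2b, its neighbour on the chromosome, followed with 62.9 in a peak of 3490 bp from 34128415 to 34131904, and it had 3 weaker peaks of 7.06, 9.15 and 8.52-fold beside it. Tubb3 reached 50.6 in the widest peak of the 10 genes, 4928 bp from 123410035 to 123414962 on chromosome 8. That peak extended from −1389 bp to 3538 bp of the Tubb3 TSS and reached the 3′ end of Mc1r. Tuba1a had the lowest value of the group, 44.2, in a peak of 2001 bp that began 59 bp downstream of the TSS, and 2 weak peaks of 4.34 and 7.60-fold lay upstream.

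The broadly expressed group was more uneven. Tubg1, the gamma-tubulin of centrosomes, had a fold enrichment of 59.0 and a width of 1837 bp, Tuba1b had 55.3 and 2038 bp, and Tubb5 had 54.4 and 2916 bp. Tubb4b had 29.6 and 1237 bp, Tuba1c 19.4 and 1852 bp, and Tubb6, a minor isotype in brain, 14.7 and 1259 bp. The group thus divided into 3 genes between 54.4 and 59.0 and 3 genes between 14.7 and 29.6, and each gene of the neuron-enriched group lay above the latter. Tubg1 shares its promoter with Retreg3, which starts 44 bp away on the other strand, and its H3K4me3-ChIP summit lay at −366 bp on the Retreg3 side. In the other 9 genes the summit of the strongest peak was downstream of the TSS, from 124 bp in Tuba1c to 700 bp in Tubb5. ChIP signal has no strand, so the marks of Tubg1 and Retreg3, or of Tuba1b and the antisense gene Gm41396 that overlaps its start, cannot be told apart. The read-through genes Gm49450 over Tuba1b and Tuba1a, and Gm20388 over Tubb3, are annotated over the same peaks.

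**Figure D4:**
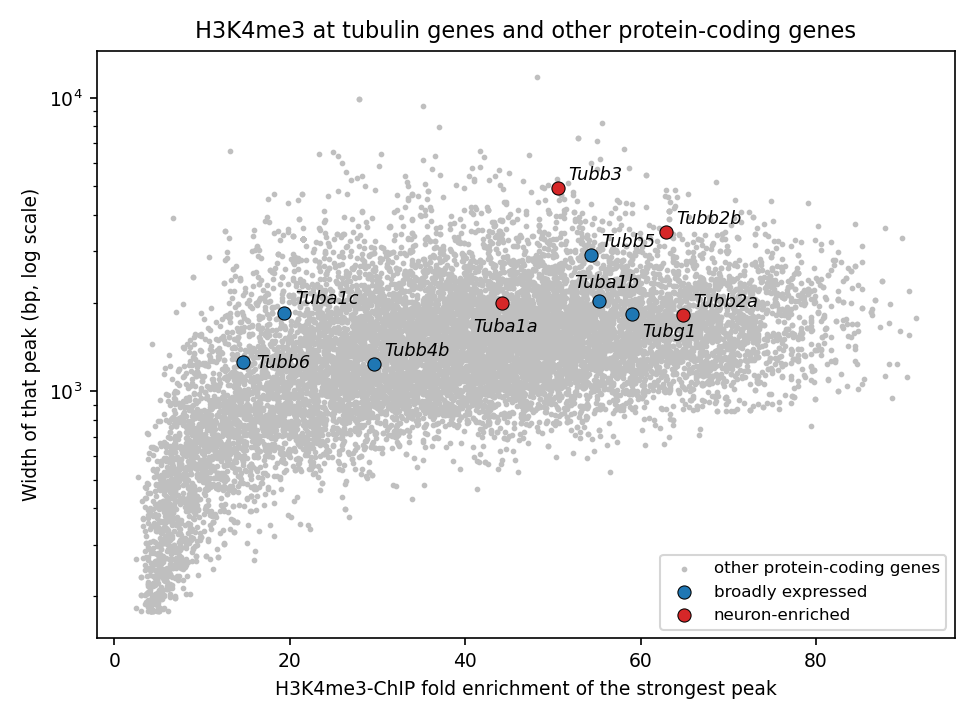
Fold enrichment of the strongest H3K4me3-ChIP peak (x axis) and its width in bp (y axis, log scale) for protein-coding genes (grey), the broadly expressed (blue) and the neuron-enriched (red) tubulin genes. Tubb3 at 4928 bp and Tubb2b at 3490 bp stand at the upper edge of the cloud, and Tubb6 and Tuba1c lie at the left, at 14.7 and 19.4-fold.

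To compare the isotype groups, their H3K4me3 values were set side by side. The median fold enrichment was 56.7 in the neuron-enriched group (44.2 to 64.8, 4 genes) and 42.0 in the broadly expressed group (14.7 to 59.0, 6 genes), and the ranges overlap. The median width was 2746 bp (1819 to 4928 bp) and 1845 bp (1237 to 2916 bp), again with overlap. With Tubb2a counted as broadly expressed, the order of the fold enrichments turned, to a median of 50.6 in the neuron-enriched and 54.4 in the broadly expressed group. With H3K4me3-ChIP peaks within 1 kb merged, the median widths were 4320 and 1945 bp. Counting all H3K4me3-ChIP peaks within 5 kb of the TSS, the marked length was 6006 bp at Tubb2b, 4928 bp at Tubb3, 3288 bp at Tuba1a and 1819 bp at Tubb2a. It was 4184 bp at Tubb5, where the peaks at Mdc1 are included, and from 1259 to 2038 bp in the other 5 broadly expressed genes. The Tubb2b length likewise includes the 8.52-fold peak, which covers the start of the lincRNA Gm36500, and a stretch outside the peaks assigned to Tubb2b. Among the 14352 genes these lengths were at percentile 99.7 for Tubb2b, 99.1 for Tubb3, 98.5 for Tubb5 and 95.8 for Tuba1a. Tubb2a, in contrast, combined the highest fold enrichment with a marked length at percentile 69.2. The genes are not replicates of a group, and no test was made of these differences.

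The remaining members of the tubulin family differed in H3K4me3 and had no NF-Y-ChIP peak (0 of 10 genes, upper limit of the Wilson 95% confidence interval 27.8%). Tuba3a and Tuba3b, known from testis, and Tubb1, known from platelets, had no H3K4me3-ChIP peak by the same rule. Tubb4a, an isotype of mature brain, had a fold enrichment of 10.6, Tuba4a had 16.6, Tuba8 had 6.52 and Tubg2, the second gamma-tubulin, had 14.8. Higher values were found at the centriolar tubulins Tubd1 (60.9) and Tube1 (50.4) and at Tubal3 (45.5). The peaks assigned to Tubd1 and Tubal3, however, had their summits nearest to the TSS of Rps6kb1 and of Net1. Tuba3a, with 3 boxes, and Tubb1, with 2, held CCAAT boxes in promoters without an H3K4me3-ChIP peak.

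Genes that fold tubulin or act on microtubules were examined next. Over 6 lists of such genes and the other tubulins, 9 of 70 genes (12.9%) had an NF-Y-ChIP peak, against 3.69% of protein-coding genes. The lists were chosen with earlier results of these data known, so this difference is not independent evidence. Most of the listed genes also had an H3K4me3-ChIP peak, against 65.4% of protein-coding genes, so the backgrounds are unlike. The placing of genes under proliferating cells or neurons was not taken from these data and was not varied. Among those listed as microtubule-associated proteins of proliferating cells, 4 of 10 had an NF-Y-ChIP peak, Hmmr, Map4, Ckap5 and Stmn1 (Wilson 95% confidence interval 16.8 to 68.7%). Hmmr, a spindle protein, had the strongest peak of them, with a fold enrichment of 28.3 and rank 7, at a start it shares with Nudcd2. Map4, which stabilises microtubules, had 12.6, Ckap5, a microtubule polymerase, had 9.26 and Stmn1, which sequesters tubulin dimers, had 7.27. All of these values were above the 3.72 of Tubb4b.

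Of the microtubule-associated proteins of neurons, 1 of 10 had an NF-Y-ChIP peak (interval 1.79 to 40.4%). It was Stmn4, with a fold enrichment of 3.71, rank 709 and a q-value of 0.00638, and Dcx, Dclk1, Map1b, Map2, Mapt, Stmn2, Stmn3, Map6 and Tppp3 had none. The list is too small to separate it from the background. Among enzymes and sensors of tubulin itself, 2 of 12 had a peak, the deglutamylase Agbl5 (12.3-fold) and the detyrosinating carboxypeptidase Vash2 (5.91-fold). Of prefoldin and the CCT chaperonin, which fold nascent tubulin, 1 of 13 had a peak, Pfdn6 (5.25-fold), whose summit was nearest to the TSS of Wdr46. Of the tubulin cofactors, 1 of 7 had a peak, Tbcb (4.44-fold), whose summit was nearest to that of Polr2i. The gamma-tubulin ring complex, with which Tubg1 acts, had 0 of 8 (upper limit 32.4%).

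**Figure D5:**
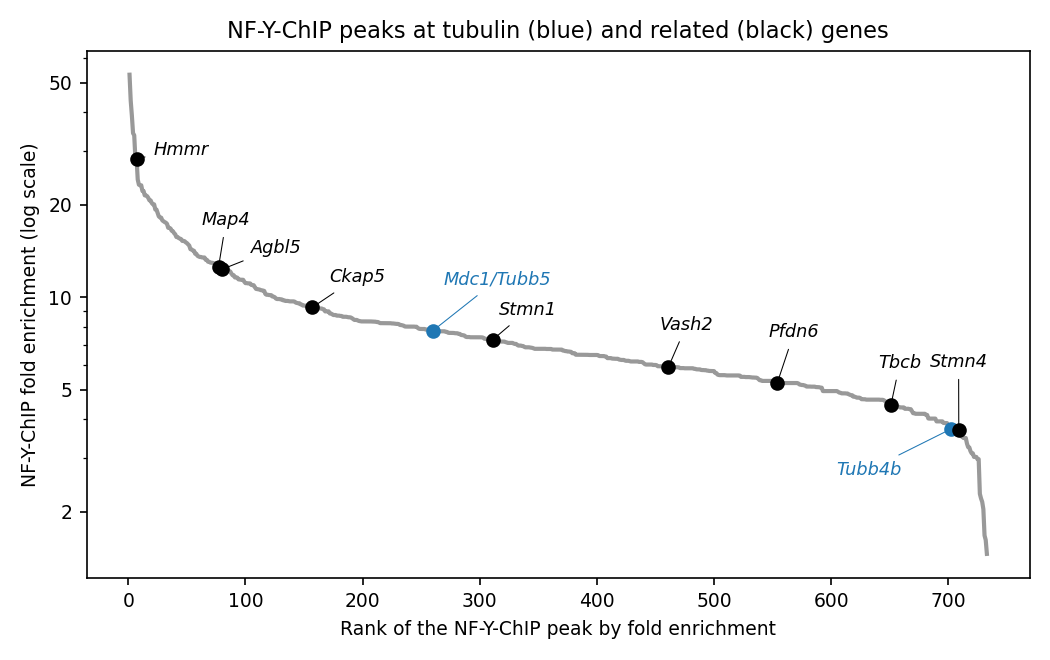
Fold enrichment of all 733 NF-Y-ChIP peaks by rank (log scale), with the peaks assigned to tubulin genes in blue and those of related genes in black. The peak of Tubb4b, at 3.72, lies near the end of the curve beside that of Stmn4, at 3.71, and Hmmr, at 28.3, is the highest of the marked peaks.

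The labelled tissue was checked against promoter marks. H3K4me3 marked the promoters of 6 of 6 markers of cortical progenitors and 6 of 6 of cortical neurons, 0 of 3 of microglia and 0 of 3 of other organs. It also marked 2 of 3 endothelial markers, Kdr and Cldn5. Over all protein-coding genes the share was 62.8%, and the endothelial count is near it. The fold enrichment ranged from 30.1 to 60.7 at the progenitor markers and from 4.61 to 47.5 at the neuron markers. Counts of so few markers cannot give the make-up of the tissue. The part of endothelial cells in the values at tubulin genes was not tested.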

How the data were processed

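ChIP-seq libraries of E13.5 mouse cortices were used as peak lists. According to the methods, reads were trimmed with Trimmomatic, aligned to mm10 (GRCm38) with Bowtie 2 (2.2.8 per the submitters' processing notes) and peaks were called with MACS2 (2.1.2). The authors thresholded NF-Y-ChIP peaks by p-value (0.001) and H3K4me3-ChIP peaks by q-value (0.05). Input was the negative control of the ChIP, and its use in the peak calling is not spelled out in the sources used here. The deposited fold enrichment is a ratio of the summit signal to the local background. The p-value and q-value of a peak were deposited as −log10 values. In the deposited score, the −log10 p-value (NF-Y-ChIP) or the −log10 q-value (H3K4me3-ChIP) is multiplied by 10 and rounded down, which held for every peak and served to tell the lists apart. Values were used as deposited. Read depth is unknown, so a gene without a peak was not detectable at the depth of the lists, which is not absence of binding.

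Peaks were assigned to GENCODE M21 genes by the rule of the study, inside the gene or within 5 kb upstream, with an overlap of 1 bp or more. The TSS was that of the lowest-numbered APPRIS principal transcript, and distances are negative upstream. The GRCm38.p6 reference was searched for CCAAT and ATTGG in promoter windows and 50 bp to each side of summits, and the extended NF-Y consensus RRCCAATSR was searched on both strands. Positions are 1-based. Cct6a, annotated as a non-coding gene in GENCODE M21, was left out of its list. A further list of cell type markers is not reported here. The text names the 10 members, genes of the related lists with an NF-Y-ChIP peak and genes that share a peak with a member, and other names were added after values were seen. The members, lists and alternatives were chosen with earlier results of these data known. On simulated data, 2000 of 2000 genes were assigned correctly and 600 of 600 added motifs were found. Wilson intervals cover counting over genes or peaks, which are not independent replicates. Alternatives covered thresholds, distance rules, motif windows, starts and the place of Tubb2a. Python 3.11.15, NumPy 2.4.6, pandas 2.3.3, SciPy 1.17.1, pysam 0.24.0, samtools 1.23.1 and matplotlib 3.10.9 were used.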

Additional observations from a re-analysis of the deposited data

How the results depend on the processing

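Of 64 alternative values, 40 did not move, or for counts stayed within 1.5 times of the reported one, and 24 moved. The number of tubulin genes with an NF-Y-ChIP peak, 2, became 1 with q < 0.05 only (Tubb5 left), 1 with peaks at or above the median fold enrichment (Tubb5 left) and 1 with a summit within 1 kb of a TSS (Tubb4b left). The count of the broadly expressed group became 1 in the same way, and the neuron-enriched group stayed at 0. With the upstream limit at 50 kb, both the count over all 10 genes and that of the broadly expressed group were 3, with Tubg1 added. The peak of Tubb4b therefore depends on the p-value threshold and that of Tubb5 on the distance rule. No tubulin gene met both the limit of q < 0.05 and that of 1 kb. With Tubb2a in the broadly expressed group, the median H3K4me3-ChIP fold enrichment became 54.4 there and 50.6 in the neuron-enriched group, so the order of the groups turned, and the median width became 1837 and 3490 bp. Merging H3K4me3-ChIP peaks within 1 kb gave widths of 1945 and 4320 bp, and the length marked within 5 kb of the TSS, added after seeing the data, gave 1858 and 4108 bp. The extended NF-Y consensus was within 50 bp of 1 of the 2 summits. It was in 3 of 10 promoter windows, and the last 100 bp before the TSS held a CCAAT box in 3. No NF-Y-ChIP peak of a tubulin gene overlapped H3K4me3-ChIP peaks by 50% of its width (0), none had its summit inside one (0, added after seeing the data), and 1 overlapped an H3K4me3-ChIP peak at or above the median. With NF-Y-ChIP peaks at or above the median only, the counts became 0 for prefoldin and CCT, 0 for tubulin cofactors, 1 for enzymes and sensors of tubulin and 0 for the neuronal microtubule proteins. No paired analysis was possible because each antibody had 1 library, and no library could be left out for the same reason.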
